A study of Homo sapiens with 2 samples.

Results

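The genes described are those that encode the subunits of oxidative phosphorylation. They were chosen by symbol: MT-ND, MT-CO, MT-CYB and MT-ATP for the genes of the mitochondrial genome, and NDUFA, NDUFB, NDUFC, NDUFS, NDUFV, SDHA to SDHD, UQCR, COX4I1, COX5, COX6, COX7, COX8A and ATP5 for the nuclear ones. Of 36601 genes in the count tables, 99 had such a name and 96 also had at least 100 UMIs (unique molecular identifiers, each counting 1 captured RNA molecule) over both libraries. These 96 were 13 mitochondrially encoded and 83 nuclear subunits. COX7B2 (6 and 8 UMIs), COX6A2 (0 and 3 UMIs) and COX7A1 (1 and 0 UMIs, each pair with RWPE1 first) stayed under the minimum. The antisense and divergent transcripts NDUFB2-AS1, NDUFV2-AS1 and NDUFA6-DT were not taken as subunits, nor were the 8 assembly factor genes NDUFAF1 to NDUFAF8. CYC1, a nuclear subunit of complex III, has none of the chosen names and is not among the 83.

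Oxidative phosphorylation takes place at the inner mitochondrial membrane. Complex I (NADH dehydrogenase), complex II (succinate dehydrogenase), complex III (cytochrome bc1) and complex IV (cytochrome c oxidase) pass electrons to oxygen, and complexes I, III and IV pump protons that drive complex V, the ATP synthase. All complexes but complex II combine subunits made inside the mitochondrion with subunits encoded in the nucleus and imported, so 2 genomes supply 1 machine. Mitochondrial genes are read as long polycistronic RNAs from both strands and then cut apart. Nuclear subunit promoters are known for binding NRF1, the ETS factor GABP and YY1.

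RWPE1 is an immortalized line of normal human prostate epithelium. One library came from RWPE1, which the sample labels describe as a vector only control and the study as the parental line. The other came from RWPE1 with exogenous ERG and myristoylated AKT, a membrane-anchored and constantly active kinase (RWPE-ERG-mAKT). ERG is an ETS transcription factor. In the study's constructs ERG was driven by the HNRNPA2B1 promoter in a retroviral vector, AKT1 carried a myristoylation signal, and drug selection followed infection. Each condition was 1 library, so no test between conditions was possible: intervals below are 95% intervals for counting error only and say nothing about the spread between cultures.

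After removal of 36 RWPE1 barcodes with fewer than 200 detected genes, RWPE1 kept 12468 barcodes with 217299277 UMIs, and RWPE-ERG-mAKT had 17355 barcodes with 237490385 UMIs. The median barcode held 15789 UMIs for RWPE1 and 11720 for RWPE-ERG-mAKT. ERG rose from 355 to 4892 UMIs (log2 ratio 3.66, 3.50 to 3.82). AKT1 stood at 4785 and 4547 UMIs, and since the transgene need not carry the 3′ end that these libraries read, this value does not check the label. The 6 epithelial markers summed to 5481 CPM (UMIs per 1000000) for RWPE1 and 5289 for RWPE-ERG-mAKT, with none at 0. The 5 fibroblast markers summed to 2.07 and 26.0 CPM, mostly DCN in RWPE-ERG-mAKT, and the 4 endothelial, 5 immune, 4 choroid plexus and 3 neuroendocrine markers to between 0.0842 and 13.4 CPM in either library. The libraries shared 55 barcodes, and 53 RWPE1 barcodes held RNA of microglia or choroid plexus genes. Without either set the mitochondrial sum (log2 ratio −1.03), the nuclear median (0.40) and the count of nuclear subunits past 1.5-fold (32 higher, 5 lower) stayed as they were with all barcodes.

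The promoter windows of 3 nuclear subunits are shown first: NDUFA6 and UQCR10, with log2 ratios of 2.55 (the highest) and 1.59 (behind NDUFB2), and ATP5MD, with −0.69 (next to the lowest, ATP5F1E). They were chosen with their ratios and motif matches known. Each runs 5′ to 3′ on the strand of the gene, from 250 bases before to 50 after the RefSeq start, on GRCh38.p14. NDUFA6 lies at chr22:42090723-42091022 on the minus strand, UQCR10 at chr22:29767119-29767418 on the plus strand and ATP5MD at chr10:103396426-103396725 on the minus strand. Capitals mark matches to the NRF1 core GCATGCGC and the YY1 motif AAGATGGC in NDUFA6 and to the ETS motif CCGGAAG, on either strand, in ATP5MD. UQCR10 held none of them, nor did the windows of NDUFB2, ATP5F1E and NDUFB1, which are not printed.
NDUFA6: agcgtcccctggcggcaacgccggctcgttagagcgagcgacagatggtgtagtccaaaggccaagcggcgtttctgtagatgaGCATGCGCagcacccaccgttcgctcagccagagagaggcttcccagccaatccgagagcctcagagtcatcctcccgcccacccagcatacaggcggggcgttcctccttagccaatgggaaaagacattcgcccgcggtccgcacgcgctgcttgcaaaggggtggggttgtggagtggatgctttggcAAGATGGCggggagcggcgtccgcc
UQCR10: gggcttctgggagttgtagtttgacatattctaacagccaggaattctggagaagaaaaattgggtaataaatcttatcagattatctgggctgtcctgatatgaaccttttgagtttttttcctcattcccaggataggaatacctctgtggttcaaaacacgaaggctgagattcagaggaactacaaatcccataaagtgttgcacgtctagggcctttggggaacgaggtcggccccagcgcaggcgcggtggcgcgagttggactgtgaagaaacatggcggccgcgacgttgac
ATP5MD: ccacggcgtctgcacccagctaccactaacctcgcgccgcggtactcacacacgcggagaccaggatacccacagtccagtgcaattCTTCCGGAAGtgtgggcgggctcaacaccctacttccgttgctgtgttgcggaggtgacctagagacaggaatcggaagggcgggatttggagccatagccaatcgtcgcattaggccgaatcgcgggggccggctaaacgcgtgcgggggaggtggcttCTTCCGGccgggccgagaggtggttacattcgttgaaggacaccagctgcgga

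In NDUFA6 the NRF1 core began at base −166 and the YY1 motif at base 26, counted from the start with no base 0. In ATP5MD, ETS matches began at −163 (minus strand), −160 (plus strand) and −3 (minus strand), and the first pair overlapped. A window was found for 68 of the 83 nuclear subunits. Both strands were searched for each motif. The ETS motif CCGGAAG stood in 20 of the 68 windows (29.4%), against 10.3% of all 35116 RefSeq promoter windows. The NRF1 core stood in 13 (19.1%, against 3.05%), YY1 in 11 (16.2%, against 2.89%) and the E-box CACGTG in 7 (10.3%, against 7.26%).

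Each share lay above that of all windows, which include noncoding genes, and no test was made of it. Within the subunits, the ETS letters did not go with a higher ratio: they stood in 7 of the 26 windows of subunits that were higher past 1.5-fold and in 13 of the other 42. The median log2 ratio was 0.34 with the ETS letters and 0.41 without them, and it was 0.67 with the NRF1 core and 0.37 without it. A match describes letters in a window, and binding was not measured.

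Mitochondrially encoded subunits were lower in RWPE-ERG-mAKT. In RWPE1 they made up 5.86% of all UMIs (5.86 to 5.87), against 2.87% in RWPE-ERG-mAKT (2.87 to 2.88), which is a log2 ratio of −1.03 and 2.04-fold lower. Of the 13 genes, 10 were more than 1.5-fold lower, 5 of these more than 2-fold, and 12 had a ratio below 0. Over the 18297 genes with at least 100 UMIs, 33.7% were more than 1.5-fold lower and 20.2% more than 2-fold lower, and the median log2 ratio was −0.18. The median over the 13 was −0.92. All genes of the mitochondrial genome that the tables list are among these 13, so the usual measure of mitochondrial RNA in a barcode, often read as a sign of cell quality, is the same measurement.

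**Figure D1:**
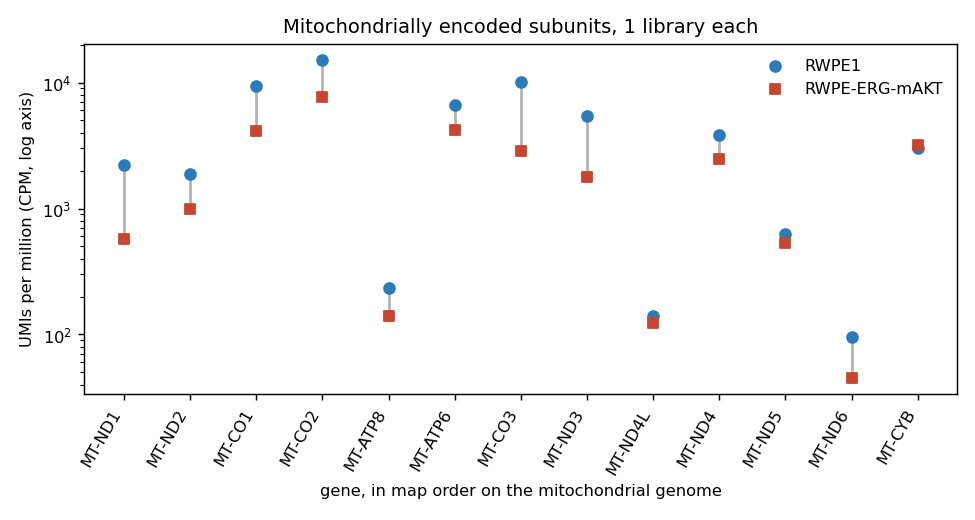
CPM (log axis) of the 13 mitochondrially encoded subunits in RWPE1 (blue circles) and RWPE-ERG-mAKT (red squares), 1 library each, in map order on the mitochondrial genome, with a line joining the values of each gene. Counting intervals are smaller than the symbols. MT-ND1, MT-CO3 and MT-ND3 have the longest lines and MT-CYB alone is not lower in RWPE-ERG-mAKT, though it is after thinning (−0.01) and as a mean of barcode shares (−0.11).

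The sizes differed between genes. MT-ND1, a core membrane subunit of complex I (chrM:3307-4262), fell from 2210 CPM (2204 to 2217) to 575 (572 to 578), a log2 ratio of −1.94 and the lowest of the 13. MT-CO3, the third mitochondrially encoded subunit of complex IV (chrM:9207-9990), fell from 10017 to 2877 CPM (log2 ratio −1.80), and MT-ND3 (chrM:10059-10404), also of complex I, from 5450 to 1771 (−1.62). These 3 fell more than the sum, and their share of mitochondrial UMIs went from 3.77% to 2.0%, from 17.1% to 10.0% and from 9.30% to 6.16%. In complex IV the catalytic subunit MT-CO1 fell from 9371 to 4154 CPM (−1.17) and MT-CO2, which takes electrons from cytochrome c, from 15125 to 7617 (−0.99). MT-ND6 is the only one of the 13 on the minus strand of the file's reference (chrM:14149-14673), and it went from 20651 to 10637 UMIs (log2 ratio of CPM −1.09). That value was close to the ratio of the sum, so genes of both strands were lower.

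The remaining complex I genes were lower by less. MT-ND2 went from 1874 to 991 CPM (log2 ratio −0.92) and MT-ND4 from 3843 to 2480 (−0.63). MT-ND5 stood at 633 and 535 CPM (−0.24) and MT-ND4L at 140 and 123 (−0.18), both within 1.5-fold. In barcodes with 7.5% or more mitochondrial UMIs these last ratios turned to 1.06 for MT-ND5 and 1.23 for MT-ND4L. Those barcodes are picked by the mitochondrial genes themselves. Both subunits of complex V made in the mitochondrion, which lie in its membrane part, were lower: MT-ATP8 at 235 and 139 CPM (−0.76) and MT-ATP6 at 6629 and 4225 (−0.65). MT-ATP8 overlaps MT-ATP6, and MT-ND4L overlaps MT-ND4, on shared transcripts, so the split of UMIs within each pair is uncertain.

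MT-CYB, the cytochrome b of complex III (chrM:14747-15887), did not fall. It stood at 3000 CPM (2992 to 3007) in RWPE1 and 3203 (3196 to 3210) in RWPE-ERG-mAKT, which is a log2 ratio of 0.09. Its sign was not stable, with −0.01 after thinning every barcode to 5000 UMIs and −0.11 as a mean of barcode shares. Among mitochondrial UMIs its share went from 5.12% to 11.1%. Summed by complex, the mitochondrial genes of complex I had a log2 ratio of −1.13, complex III 0.09, complex IV −1.24 and complex V −0.65.

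Nuclear subunits were higher on balance in RWPE-ERG-mAKT, the opposite direction. In RWPE1 their summed share of UMIs was 2.46% (2.46 to 2.46), against 3.08% in RWPE-ERG-mAKT (3.08 to 3.08), which is a log2 ratio of 0.32 and 1.25-fold higher. Of 83 genes, 32 (38.6%) were more than 1.5-fold higher, 5 (6.02%) more than 1.5-fold lower and 46 in between. Over all genes with at least 100 UMIs, 20.0% were more than 1.5-fold higher and 33.7% lower. The median log2 ratio of the 83 was 0.40, with a range of −0.72 to 2.55, and 62 lay above 0, as did 41.7% of all genes. More than 2-fold higher were 10 subunits, against 10.7% of all genes, and 0 were more than 2-fold lower, against 20.2%. Among the 13895 nuclear genes with a coding transcript the median was −0.12, with 20.2% higher and 29.4% lower.

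**Figure D2:**
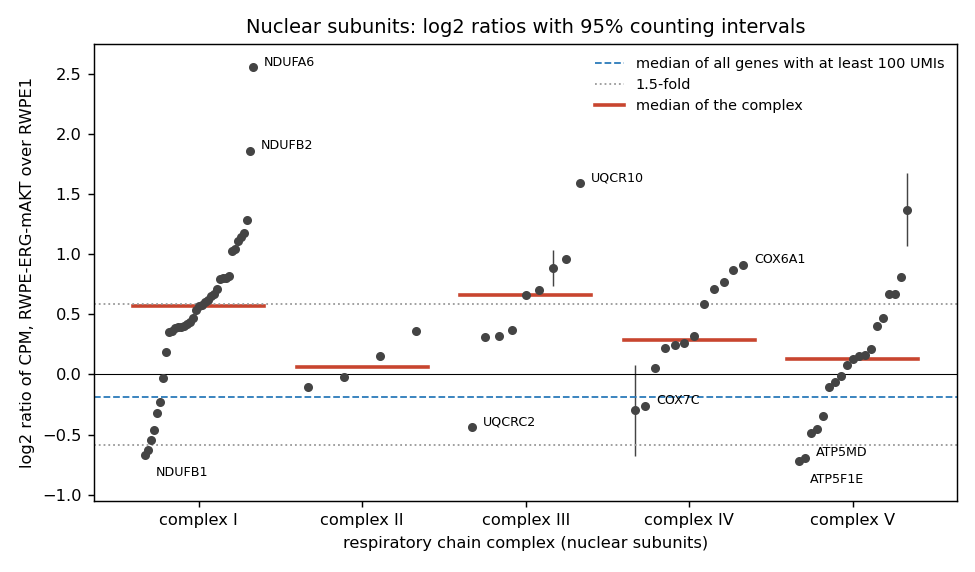
Log2 ratio of CPM, RWPE-ERG-mAKT over RWPE1, for each nuclear subunit of complexes I to V (dots, ordered within each complex), with 95% intervals for counting error (vertical lines, mostly within the dots). Red bars are the medians of the complexes, the dashed blue line the median of all genes with at least 100 UMIs, and dotted lines 1.5-fold. Complexes I and III sit highest and complexes II and V lie around 0. NDUFA4 and NDUFA4L2, placed in no complex, and CYC1, not among the 83 subunits, are not drawn.

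The complexes differed in how many of their subunits moved. Each count is to be read beside all genes with at least 100 UMIs, of which 20.0% were higher and 33.7% lower. Complex I had a median log2 ratio of 0.57 over 37 genes, with 17 higher (45.9%) and 2 lower (5.41%). Complex III had 0.66 over 9 genes, with 5 higher (55.6%) and 0 lower. These 9 leave out CYC1 (log2 ratio −0.51), a nuclear subunit of complex III, and hold UQCRHL, a near copy of UQCRH. Complex IV had 0.29 over 12, with 5 higher (41.7%) and 0 lower. NDUFA4 (0.94, higher) and NDUFA4L2 (−0.63, lower) were counted in no complex. Complex II, which has no mitochondrially encoded subunit, had 0.06 over 4 with none past 1.5-fold. Complex V had 0.13 over 19, with 4 higher (21.1%, near the share of all genes) and 2 lower (10.5%). In sums of UMIs the complexes stood at 0.58 (I), 0.08 (II), 0.56 (III), 0.37 (IV) and −0.09 (V). Over all alternatives the medians of complexes I, III and IV stayed above 0 (lowest 0.28, 0.22 and 0.14), while those of complex II (−0.38 to 0.25) and complex V (−0.24 to 0.32) took both signs. For complexes I and IV the nuclear subunits were thus higher in sum while the mitochondrial ones were lower. In complex III both sums lay above 0, without CYC1 in the nuclear sum and with an unstable sign for MT-CYB.

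Complex I transfers electrons from NADH to ubiquinone. Its nuclear subunit with the highest ratio was NDUFA6, a small accessory subunit of the LYR family that binds the acyl carrier protein (chr22:42085525-42090955). NDUFA6 stood at 49.8 CPM (48.8 to 50.7) in RWPE1 and 292 (290 to 294) in RWPE-ERG-mAKT, which is a log2 ratio of 2.55 and 5.86-fold higher. Its promoter window is the one printed above with an NRF1 core and a YY1 match. NDUFB2, an accessory subunit of the membrane arm, rose from 115 to 418 CPM (log2 ratio 1.86), and its promoter window held none of the ETS, NRF1 and YY1 motifs. NDUFA12, an accessory subunit of the peripheral arm, rose from 168 to 411 CPM (1.29).

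The complex I subunits with most UMIs were also higher. NDUFS6, which carries a zinc site in the peripheral arm, went from 399 to 861 CPM (log2 ratio 1.11), and NDUFS5, an accessory subunit on the intermembrane side, from 482 to 733 (0.60). The lowest ratios in complex I were those of NDUFB1 (320 and 201 CPM, −0.67), NDUFB9 (322 and 208 CPM, −0.63) and NDUFA3 (163 and 111 CPM, −0.55), all accessory subunits of the membrane arm or next to it. NDUFB1 and NDUFB9 were past 1.5-fold and NDUFA3 was not. Subunits of the membrane arm therefore stood at both ends of the order.

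On chromosome 22 the 3 subunits NDUFA6, UQCR10 and ATP5MGL all stood among the highest, and other genes there were also higher. The 381 other genes of this chromosome had a median log2 ratio of 0.37, the highest of 23 chromosomes, while chromosome 10, home of ATP5MD, had the lowest at −0.64. Next to NDUFA6, SMDT1 had a ratio of 1.06, while the divergent transcript NDUFA6-DT had −0.17 at 582 and 564 UMIs. Without chromosome 22 the nuclear median was 0.39 over 80 genes, with 29 higher and 5 lower. The copy number of chromosomes was not measured.

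All 4 subunits of complex II, which oxidizes succinate in the citric acid cycle, stood within 1.5-fold. SDHA, the flavin subunit, had 67.2 CPM in RWPE1 and 74.7 in RWPE-ERG-mAKT (log2 ratio 0.15, 0.12 to 0.18). SDHB, the iron-sulphur subunit, had 145 and 135 CPM (−0.10, −0.13 to −0.08). The membrane anchors SDHC and SDHD had 88.8 and 114 CPM (0.36) and 82.0 and 80.6 CPM (−0.02, −0.05 to 0.01). Only SDHC was higher in all 6 depth classes of barcodes described below.

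Complex III passes electrons from ubiquinol to cytochrome c. Its small subunit UQCR10 (chr22:29767369-29770413) had the highest ratio, with 172 CPM (171 to 174) in RWPE1 and 520 (517 to 523) in RWPE-ERG-mAKT, which is a log2 ratio of 1.59. The core subunits of the complex went apart: UQCRC1 rose from 131 to 254 CPM (0.96) while UQCRC2 stood at 165 and 122 CPM (−0.44). UQCRFS1, the Rieske iron-sulphur protein, had 183 and 228 CPM (0.31). The hinge protein UQCRH, with 675 and 843 CPM (0.32), and UQCRQ, with 649 and 837 CPM (0.37), had most UMIs. UQCRHL is a near copy of UQCRH with 556 and 1119 UMIs (0.88). Reads of the pair may be split by the counting, and its ratio turned to −1.52 in barcodes with 200 to 2500 genes and under 7.5% mitochondrial UMIs.

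Complex IV reduces oxygen. COX6A1 rose from 324 to 610 CPM (log2 ratio 0.91), COX5A from 329 to 602 (0.87), COX7A2 from 360 to 614 (0.77) and COX5B from 476 to 780 (0.71), all of them nuclear subunits that surround the mitochondrially encoded core. COX4I1, the first subunit added to MT-CO1 in assembly, stood at 734 and 870 CPM (0.24), and COX7C at 1225 and 1021 (−0.26). COX4I1 and COX7C had most UMIs among the nuclear complex IV genes. COX4I1 and COX7C thus stood within 1.5-fold while COX5A, COX5B, COX6A1 and COX7A2 were past it.

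The tissue paralogs of complex IV were at or near 0 in both libraries. COX6A2 and COX7A1, the heart and muscle forms, had at most 3 UMIs in either library, and COX4I2, the alternative to COX4I1, had 3 and 1. COX6B2, known from testis, had 127 and 113 UMIs (log2 ratio −0.30, −0.68 to 0.08) beside 387 and 463 CPM for COX6B1 (0.26). COX7A2L, which helps complexes III and IV join into supercomplexes, had 112 and 117 CPM (0.06), unlike COX7A2. NDUFA4, named for complex I and now assigned to complex IV, rose from 399 to 766 CPM (0.94). It was counted in neither complex above. Its paralog NDUFA4L2, known as a hypoxia-induced gene, had 105 and 74 UMIs (−0.63, −1.08 to −0.19).

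Complex V makes ATP, and several of its subunits with most UMIs were lower. ATP5F1E, the epsilon subunit of the catalytic head's stalk, fell from 2207 CPM (2201 to 2213) to 1338 (1333 to 1342), a log2 ratio of −0.72 and 1.65-fold lower. ATP5MD, a small membrane subunit linked to the dimer of the synthase, fell from 952 to 589 CPM (−0.69). Of the catalytic head, the alpha subunit ATP5F1A stood at 164 and 118 CPM (−0.48) and the beta subunit ATP5F1B at 501 and 496 (−0.01). ATP5F1E alone went from 8.97% to 4.35% of nuclear subunit UMIs, and the sum of the complex includes it.

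Other subunits of complex V were higher. ATP5MF rose from 333 to 583 CPM (log2 ratio 0.81) and ATP5ME from 397 to 631 (0.67), both in the membrane part. ATP5MGL, a copy related to ATP5MG, had 126 and 355 UMIs (1.37, 1.07 to 1.67), and ATP5MG itself 431 and 402 CPM (−0.10). The genes ATP5MC1, ATP5MC2 and ATP5MC3 encode the same mature c subunit of the rotor and went different ways, with 275 and 320 CPM (0.22), 638 and 466 CPM (−0.45) and 440 and 465 CPM (0.08). ATP5IF1, the inhibitor of the synthase, had 382 and 506 CPM (0.41).

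The balance of the 2 genomes changed direction. Mitochondrial subunit UMIs outnumbered nuclear ones 2.38 to 1 in RWPE1 and were 0.934 to 1 in RWPE-ERG-mAKT, a log2 difference of −1.35. Per barcode, RWPE1 held 1022 mitochondrial and 429 nuclear subunit UMIs on average, and RWPE-ERG-mAKT 393 and 421. Nuclear subunit UMIs per barcode were therefore nearly alike, in barcodes that held fewer UMIs in RWPE-ERG-mAKT, and mitochondrial ones were not.

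The difference was spread over most barcodes. The median barcode had 5.73% mitochondrial subunit UMIs for RWPE1 (quartiles 4.75 and 6.88) and 2.67% in RWPE-ERG-mAKT (1.92 and 3.48). For nuclear subunits the medians were 2.43% (2.12 and 2.78) and 3.03% (2.68 and 3.48). Of 17355 RWPE-ERG-mAKT barcodes, 738 (4.25%, exact binomial 3.96 to 4.56) lay above the mitochondrial median of RWPE1 and 15377 (88.6%, 88.1 to 89.1) above its nuclear median. Barcodes are not replicates, and these are descriptions of 2 libraries.

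**Figure D3:**
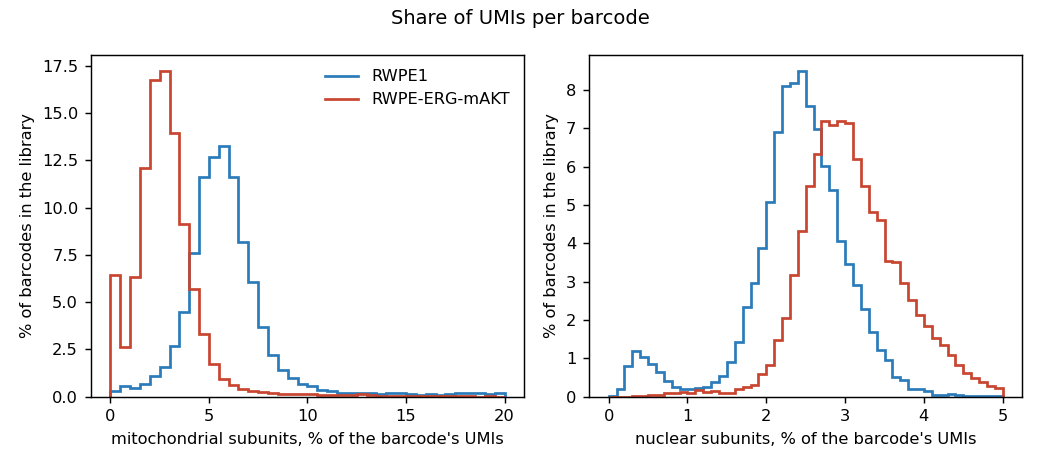
Distribution of the share of UMIs from mitochondrially encoded (left) and nuclear (right) subunits per barcode, as percent of the barcodes of RWPE1 (blue) and RWPE-ERG-mAKT (red). The RWPE-ERG-mAKT curve lies left of RWPE1 for mitochondrial and right of it for nuclear subunits. A second small peak near 0 stands in RWPE-ERG-mAKT on the left and in RWPE1 on the right, and 4.16% of RWPE1 and 0.415% of RWPE-ERG-mAKT barcodes lie beyond the left axis.

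Barcodes at the extremes of mitochondrial share were unequal in number. At 7.5% mitochondrial UMIs or more stood 2139 RWPE1 barcodes (17.2%, 16.5 to 17.8) and 440 of RWPE-ERG-mAKT (2.54%, 2.31 to 2.78). Under 1% stood 109 RWPE1 barcodes (0.874%, 0.718 to 1.05) and 1572 of RWPE-ERG-mAKT (9.06%, 8.63 to 9.49). The study filtered cells at that mitochondrial percent. Its methods word the cells below it as the ones removed, and barcodes below it are taken here as the side kept, which is a reading and not the wording of the study. Among barcodes under 7.5%, which are chosen on the mitochondrial members themselves, the log2 ratio was −0.90 for the mitochondrial sum and 0.30 for the nuclear sum. Among barcodes at 7.5% or more, chosen in the same way, it was 0.06 and 0.00, with 14 nuclear subunits higher and 14 lower.

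Nuclear subunits were lower in barcodes with a high mitochondrial share, in both libraries. As a share of UMIs that are not mitochondrially encoded, they made up 2.67% in RWPE1 and 3.13% in RWPE-ERG-mAKT at 2 to 5% mitochondrial UMIs, and 2.62% and 3.1% at 5 to 7.5%. At 7.5 to 10% the libraries stood at 2.65% and 2.67%, and at 10 to 15% at 2.19% and 1.99%. At 15% or more the share was 0.908% in 712 RWPE1 barcodes and 1.94% in 134 of RWPE-ERG-mAKT. In these last barcodes cytosolic ribosomal protein UMIs were also at 5.85% and 13.1%, against 26.5% in both libraries at 5 to 7.5%. The higher nuclear share of RWPE-ERG-mAKT thus held below 7.5%, where most barcodes of both libraries lay, and not at 7.5 to 15%.

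Depth per barcode also moved with the mitochondrial share in RWPE1. Mitochondrial subunits were 19.6% of UMIs in RWPE1 barcodes with 500 to 2000 UMIs and 22.3% with 2000 to 5000. They were 5.91% with 10000 to 20000 and 4.62% above 40000. In RWPE-ERG-mAKT the same classes had 4.74%, 3.71%, 2.82% and 2.79%. RWPE1 was higher in each of the 6 classes. Nuclear subunits made up between 1.21% and 2.68% of the other UMIs in RWPE1 and between 3.12% and 3.55% in RWPE-ERG-mAKT, lower in RWPE1 in every class. The part of depth in the differences between libraries was not tested further.

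**Figure D4:**
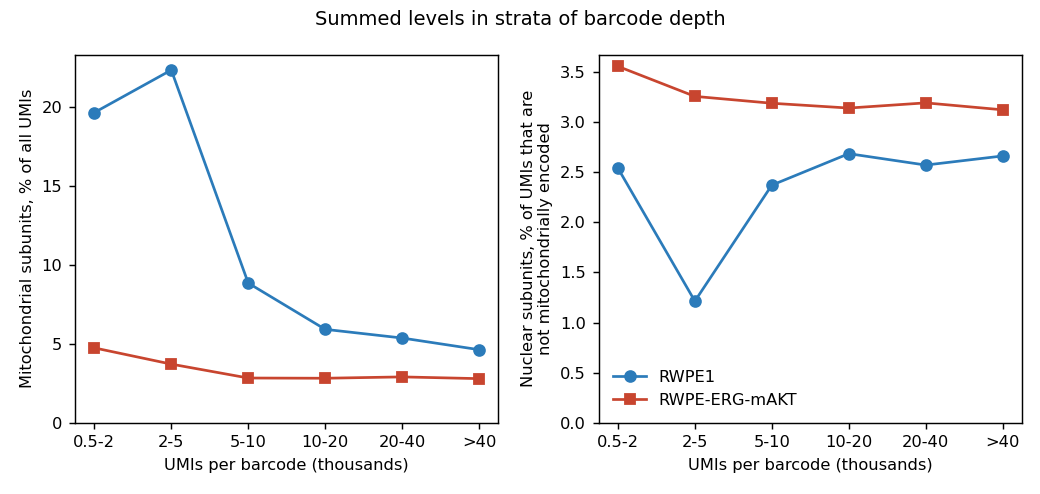
Summed mitochondrially encoded subunits as percent of all UMIs (left) and nuclear subunits as percent of UMIs that are not mitochondrially encoded (right) in 6 classes of UMIs per barcode, for RWPE1 (blue circles) and RWPE-ERG-mAKT (red squares). RWPE1 lies above RWPE-ERG-mAKT on the left and below it on the right in every class. On the left the RWPE1 classes of 500 to 2000 and 2000 to 5000 UMIs are both high (19.6% and 22.3%). On the right the RWPE1 class of 2000 to 5000 UMIs stands apart at 1.21%.

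By gene, 12 of the 13 mitochondrial subunits were lower in RWPE-ERG-mAKT in all 6 depth classes. MT-CYB was the exception, higher in only 2 of the 6 classes, with log2 ratios from −1.65 at 2000 to 5000 UMIs to 0.44 above 40000. Of all 83 nuclear subunits, 50 were higher in all 6 classes and 3 in none. Of the 32 more than 1.5-fold higher, 30 were higher in all 6. These 32 were picked by their ratio over the same barcodes, which favours such a count. The share over all genes was not counted. NDUFA6 ranged from 1.23 to 3.69 and NDUFB2 from 1.64 to 3.16. Of the 5 lower ones, 1 was lower in all 6, NDUFB9, and ATP5F1E ranged from −0.96 to 1.11, with its positive ratios below 5000 UMIs.

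Most nuclear subunits have short transcripts, and short transcripts as a whole were higher in RWPE-ERG-mAKT. By the longest coding transcript, 58 of 83 subunits were under 2000 bases. Other genes under 800 bases had a median log2 ratio of 0.44, against 0.51 for 20 subunits. The medians were 0.35 against 0.44 for 19 subunits at 800 bases to under 1200, and 0.13 against 0.47 for 19 at 1200 to under 2000. They were −0.13 against 0.19 for 15 at 2000 to under 4000 and −0.29 against 0.38 for 10 at 4000 or more.

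**Figure D5:**
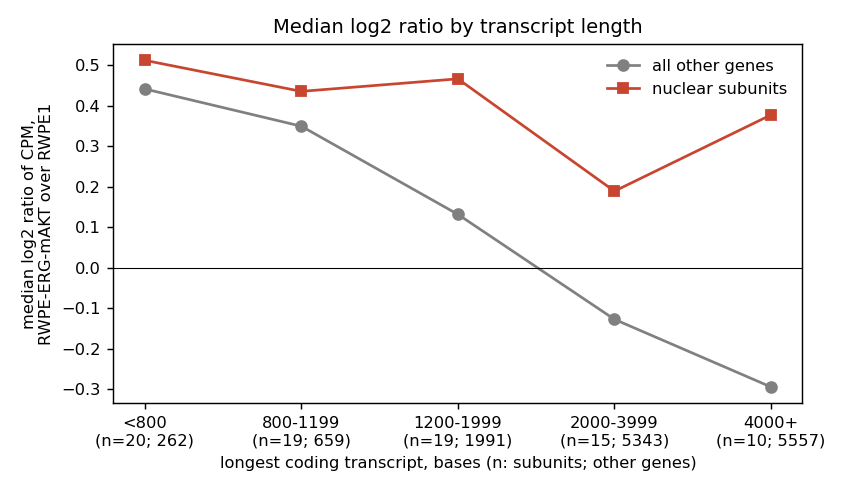
Median log2 ratio of CPM, RWPE-ERG-mAKT over RWPE1, in classes of the longest coding transcript (bases), for nuclear subunits (red squares) and all other genes (grey circles), with the numbers of subunits and other genes under each class. Other genes go from 0.44 in the shortest to −0.29 in the longest class, and the subunits lie above them in every class, by least under 1200 bases.

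Taken relative to the median of other genes in the same length class, the nuclear median was 0.23, and 55 of 83 subunits lay above their class. By complex, again without NDUFA4, NDUFA4L2 and CYC1, these relative medians were 0.44 (I), 0.06 (II), 0.53 (III), 0.15 (IV) and −0.15 (V). The position of complexes I and III above the others therefore held within length classes, and complex V was below its classes. What part transcript length has in the nuclear result was not tested. The other 4389 genes with at least 100 UMIs had no coding transcript in the annotation and were left out of this comparison.

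Genes that serve the same machine did not all move with it. Each count below is to be read beside all genes with at least 100 UMIs, of which 20.0% were more than 1.5-fold higher and 33.7% lower. The mitochondrial ribosome, which translates the mitochondrial messages and is itself encoded in the nucleus for all its proteins, had 42 of 78 proteins more than 1.5-fold higher (53.8%) and 1 lower (1.28%), with a median log2 ratio of 0.62. MRPS30 (1.72), MRPL50 (1.65) and MRPS26 (1.57) had the highest ratios, and MRPL30 (−1.18) was the lower one. Factors of mitochondrial DNA upkeep and expression had a median of −0.05 over 25 genes, with 3 higher (12%) and 6 lower (24%), both under the shares of all genes. LRPPRC, which stabilizes mitochondrial messenger RNAs, stood at 223 and 109 CPM (−1.03), and SUPV3L1, a helicase of mitochondrial RNA turnover, at 39.8 and 17.1 (−1.22). SLIRP, of the same list, went the other way, with 544 and 754 CPM (0.47, within 1.5-fold). SSBP1, the mitochondrial single-strand DNA binding protein, stood at 174 and 390 CPM (1.16).

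Regulators of mitochondrial transcription and biogenesis went different ways. TFAM, which packages and transcribes mitochondrial DNA, stood at 54.2 and 66.3 CPM (log2 ratio 0.29). The coactivator PPARGC1A was low, with 105 and 24 UMIs (−2.26, −2.96 to −1.61), and PPARGC1B stood at 46.7 and 17.7 CPM (−1.40). On the higher side stood GABPB1, a subunit of the ETS factor GABP, with 0.68, while GABPA, the subunit of GABP that binds DNA, stood at 17.7 and 12.6 CPM (−0.49) and NRF1 at 31.2 and 23.1 (−0.43). GABPA and NRF1 were added after their values were seen. Also higher was TEFM, the mitochondrial elongation factor (0.64).

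Assembly factors were mixed. Those of complex I had a median of −0.08 over 15 genes, with 7 higher and 3 lower, below that of the subunits they assemble. ACAD9 (log2 ratio −1.08), FOXRED1 (−1.07) and NUBPL (−0.76) were the lower ones, and NDUFAF8 (0.87), NDUFAF3 (0.86) and TMEM126B (0.78) had the highest ratios. Those of complexes II to V had a median of 0.33 over 34, with 12 higher and 2 lower, with UQCC1 (−1.17) and COX15 (−0.68) lower and SCO2 (1.30), HIGD1A (1.19) and COX20 (1.06) at the other end. Both lists can be read against the 20.0% of genes higher and 33.7% lower. CYCS, the electron carrier cytochrome c, rose from 397 to 711 CPM (0.84), while its partner in complex III, CYC1, stood at 327 and 230 (−0.51).

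Of 17 citric acid cycle and pyruvate dehydrogenase genes, 2 were higher (11.8%) and 1 lower (5.88%), against 20.0% and 33.7% of all genes, with a median of 0.09. The lower one was CS, the citrate synthase (log2 ratio −0.76), and PDHB (0.95) and IDH3A (0.59) were higher. Hypoxia and glycolysis genes had a median of 0.27 over 31, with 11 higher (35.5%) and 6 lower (19.4%), against the same shares of all genes. CA9, a hypoxia-induced carbonic anhydrase, went from 190 to 8485 UMIs (5.35), EGLN3 had 1.86 and ADM 1.73, and LDHA rose from 396 to 1020 CPM (1.37). PDK1, the kinase that holds back pyruvate dehydrogenase, stood at 13.8 and 11.2 CPM (−0.30), and PFKFB3 (−1.32), HK1 (−0.88) and PDK3 (−0.81) were lower. Cytosolic ribosomal proteins, also short and abundant messages, had a median of 0.01 over 82, with 10 higher (12.2%) and 7 lower (8.54%), both under the shares of all genes, and a range of −1.25 to 1.61.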

How the data were processed

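Single-cell libraries were made with the 10x Genomics Chromium 3′ kit, 1 per condition. Per the labels, the authors used Cell Ranger 7.1.0 and hg38. The deposited tables hold raw UMI counts per gene and barcode, without normalization. Counting of antisense or multiply mapped reads is not given in the sources used here.

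The gene set and lists were chosen with earlier results of these data known. Counts were summed over barcodes with at least 200 genes and given as CPM of all UMIs. Intervals are 95%, exact Poisson for levels and conditional binomial for ratios. They cover counting error only. A gene was called higher or lower past 1.5-fold; with 1 library per condition no p was computed. Doublets were not called, and leaving out the 5% of barcodes with most UMIs was an alternative.

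Named were all mitochondrial genes, SDHA to SDHD, in each other complex the 3 highest and 3 lowest ratios and the 2 genes with most UMIs, paralog sets, up to 3 genes each way of related lists, and CYCS, CYC1, COX4I2, TFAM, PPARGC1A, PDK1, LDHA, ERG and AKT1. NDUFA6-DT, SMDT1, ATP5MG, ATP5F1B, SLIRP, GABPA and NRF1 were added after their values were seen. ATP5IF1 was also named outside these rules. LRPPRC is among the 3 lowest of its list only if PPARGC1A, named by itself, is not counted. Gene positions and transcript lengths came from GENCODE 29 (GRCh38). Windows were matched to RefSeq by symbol, failing that by the symbol listed for the gene identifier, and failing that by a unique synonym. Sums and intervals were computed with scipy 1.17.1, pandas 2.3.3 and numpy 2.4.6 under Python 3.11.15 and drawn with matplotlib 3.10.9. The ratios and their intervals were tested on simulated Poisson counts with known folds. This did not test the barcode filters, thinning, classes or promoter matching, nor spread between barcodes or cultures.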

Additional observations from a re-analysis of the deposited data

How the results depend on the processing

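No paired analysis was possible because each condition was 1 library. The log2 ratio of the mitochondrial sum (−1.03) was −0.90 under 7.5% mitochondrial UMIs, −0.84 with 200 to 2500 genes and under 7.5% (the study's limits with the side below 7.5% read as kept; 362 and 2775 barcodes), −1.02 at 1000 genes or more, −1.07 without the 5% of barcodes with most UMIs, −1.10 thinned to 5000 UMIs, −1.07 per UMI not mitochondrially encoded, −0.84 with median-of-ratios scaling and −1.23 as a mean of barcode shares. It reversed to 0.064 at 7.5% or more, as did the mitochondrial over nuclear ratio (0.068), MT-ND2 (0.13), MT-CO2 (0.067), MT-ATP8 (0.42), MT-ATP6 (0.49) and MT-ND4 (0.36), and, of genes within 1.5-fold before, MT-ND5 (1.06) and MT-ND4L (1.23). Barcodes at 7.5% or more are picked by the summed share of these same mitochondrial genes, which limits how far the libraries can differ. These values therefore cannot show whether the lower mitochondrial sum holds in such barcodes. The cause was not tested. The mitochondrial over nuclear log2 difference (−1.35) was −1.20 under 7.5%, −1.10 within both limits, −1.35 at 1000 genes or more, −1.40 without the deepest barcodes, −1.42 thinned and −1.61 as barcode shares. Denominator and scaling cannot move it.

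The nuclear sum (0.32) was 0.30 under 7.5%, 0.26 within both limits, 0.33 without the deepest barcodes, 0.28 with the other denominator, 0.51 with median-of-ratios, 0.38 as barcode shares and −0.0042 at 7.5% or more. The nuclear median (0.40) was 0.076 at 7.5% or more, where all genes had 0.077, 0.41 without the deepest barcodes, 0.35 with the other denominator, 0.58 with median-of-ratios, 0.45 as barcode shares and, chosen after seeing the data, 0.23 relative to length class. Nuclear subunits higher and lower numbered 32 and 5, but 14 and 14 at 7.5% or more, 22 and 7 within both limits, 29 and 6 with the other denominator and 41 and 0 with median-of-ratios, which moved the median of all genes by 0.19. UQCRHL reversed to −1.52 within both limits. Of all 96 subunits, 62 kept their sign in 11 settings. Of the 47 past 1.5-fold, which were picked by their ratio, 41 did. The 11 settings include leaving out the 53 RWPE1 barcodes or the 55 shared barcodes, which moved none of the 96. The same count was not made over all genes. NDUFA4L2 at 7.5% or more and ATP5MGL within both limits had a library at 0 UMIs and gave no ratio.

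Per barcode, the mitochondrial medians were 9.73% and 11.7% at 7.5% or more and 2.35% and 1.68% within both limits (RWPE1, then RWPE-ERG-mAKT), and the nuclear medians 2.06% and 1.93%, and for RWPE-ERG-mAKT 3.52% within the limits. Of all UMIs, nuclear subunits were 29071 CPM in RWPE1 and 32816 in RWPE-ERG-mAKT barcodes under 2% mitochondrial UMIs, and 6904 and 14846 at 15% or more.

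Depth was no limit for most subunits, and COX6B2, NDUFA4L2, ATP5MGL and UQCRHL had the fewest UMIs. Culture, library preparation and condition cannot be told apart.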

Other observations

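In RWPE-ERG-mAKT, barcodes with CA9 were compared with those without it after thinning to 5000 UMIs (824 RWPE1 and 2029 RWPE-ERG-mAKT barcodes were shallower and left out). CA9 was detected in 2430 of 15326 barcodes. Mitochondrial subunits made up 2.79% of UMIs with CA9 (2.78 to 2.80) and 2.85% without it (2.85 to 2.86). Nuclear subunits made up 2.96% (2.95 to 2.97) and 3.1% (3.09 to 3.1). Both shares were slightly lower in CA9 barcodes, and both groups lay far from the 6.10% and 2.46% of RWPE1 barcodes without CA9.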
